A study of Mus musculus with 71 samples.

Results

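Histone variant genes that are expressed independently of DNA replication were followed in wild-type (WT) and linker histone H1-depleted mouse embryonic stem cells (mESCs). The set consisted of 9 genes chosen by name from RNA-seq tables that list 34010 RefSeq transcript accessions. They were the linker histone genes H1f0 and H1f10, the H2A variant genes H2az1, H2az2, H2ax and Macroh2a2, the H3.3 genes H3f3a and H3f3b, and Cenpa. H1f0 and H1f10 entered the list because their mRNA was already known to be higher in the knockout cells in these libraries. Their values are therefore given as a description with no test, and the question was whether the other 7 genes moved with them.

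Most histone mRNA is made in S phase from clustered genes, and it ends in a stem-loop instead of a poly(A) tail. Variant genes mostly lie outside those clusters, are transcribed through the cell cycle and give polyadenylated mRNA, with H2ax as a mixed case that also carries the S-phase end. Their products replace the S-phase histones at particular places: H1.0 and H1.10 bind linker DNA, H2A.Z and H3.3 sit at promoters and enhancers, H2A.X is phosphorylated beside DNA breaks, macroH2A2 is associated with repressed chromatin, and CENP-A marks the centromere.

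The 71 samples of the series cover H3K27me3 on nascent and mature chromatin and gene expression, and 6 of them had processed tables used here. These were 4 poly(A) RNA-seq libraries of R1 mESCs, 2 per genotype, and 1 H3K27me3 ChIP-seq peak list per genotype. H1-TKO cells carry CRISPR/Cas9-induced mutations in H1f2 (H1c), H1f3 (H1d) and H1f4 (H1e) and come from picked single-cell clones, and the number of clones behind the 2 libraries is not given in the sources used here. WT cells are the unedited R1 line. No treatment is stated for either. The study's methods describe mESC culture on gelatin with LIF, whereas the growth protocol in the labels of the 4 RNA-seq libraries names HeLa cells, a human line, against the mouse mESC cell type, strain and organism of the same labels.

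The genotype of each RNA-seq library was taken from the column name inside its table (R1 for WT, KO for H1-TKO), which the sample titles and genotype labels reverse. Each table was identical, within a relative tolerance of 0.001, to the study's source data column of the same genotype and number in 100% of the 1999 rows read. Every direction below follows the table names and would turn under those labels. The mutated genes H1f2, H1f3 and H1f4 had few reads everywhere in these poly(A) libraries: the H1f1 to H1f5 accessions summed to 35.7 and 197.4 normalized counts in WT replicates 1 and 2 against 24.2 and 25.3 in H1-TKO, and 0 of the 4 that could be tested were called. H1f3, with 3.9 and 41.4 in WT against 1.1 and 0.0 in H1-TKO, H1f4, with 5.4 and 19.6 against 0.0 and 2.1, and H1f5, with 6.2 and 44.7 against 0.0 and 2.1, were each lower in both H1-TKO libraries than in either WT library, while H1f1 and H1f2 overlapped. Most of the summed difference came from WT replicate 2. That library also had 11.83% of its reads on the ribosomal RNA gene Rn45s, against 1.98% to 2.08% in the others. Recovered reads ranged from 6951619 to 10538507 per library. Of the mESC markers, Pou5f1, Sox2, Zfp42 and Klf4 were well covered in all 4 libraries, while the 4 accessions of Nanog were listed at 0 throughout and Esrrb did not exceed 3.3.

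The DNA of these genes shows how they differ from the mutated H1 genes. The 250 bases before the RefSeq start are printed for both linker histone variants and, for comparison, for the mutated H1f4, 5′ to 3′ on the strand of the gene. Sequences are those of RefSeq (GRCm38.p6), placed in mm9 by exact match at chr15:78858392-78858641 (plus strand), chr6:87931477-87931726 (minus strand) and chr13:23714428-23714677 (minus strand). Capitals mark matches on either strand. The letters searched were CCAAT for the CCAAT box, AAACACA for the H1 box of S-phase H1 genes, GGGCGG for the GC box, TATAAA for the TATA box, and TGACG for the core of the cyclic AMP response element.
H1f0: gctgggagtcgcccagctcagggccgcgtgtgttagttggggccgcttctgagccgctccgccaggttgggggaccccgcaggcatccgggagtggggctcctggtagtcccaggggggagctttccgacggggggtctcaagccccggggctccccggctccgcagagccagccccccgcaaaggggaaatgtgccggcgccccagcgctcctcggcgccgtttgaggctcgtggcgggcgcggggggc
H1f10: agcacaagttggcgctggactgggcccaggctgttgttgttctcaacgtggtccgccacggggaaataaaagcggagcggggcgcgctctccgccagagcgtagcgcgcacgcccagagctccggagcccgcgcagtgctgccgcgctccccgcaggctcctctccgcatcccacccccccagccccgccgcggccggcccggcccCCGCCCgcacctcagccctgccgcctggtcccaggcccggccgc
H1f4: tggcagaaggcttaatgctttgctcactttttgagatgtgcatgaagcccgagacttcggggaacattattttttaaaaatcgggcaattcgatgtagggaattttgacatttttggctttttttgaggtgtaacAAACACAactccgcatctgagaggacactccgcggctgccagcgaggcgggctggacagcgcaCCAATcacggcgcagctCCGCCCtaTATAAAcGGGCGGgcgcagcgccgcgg

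The H1f0 window held none of these letters, and the H1f10 window held a single GC box. AAACACA stood before H1f2, H1f3, H1f4 and H1f5 and, among the 8 variant genes with a window, before H3f3a alone. Of all 32851 windows of this length, 6.2% held AAACACA, 33.8% CCAAT, 32.7% GGGCGG, 12.4% TATAAA and 17.8% TGACG. GC content was 74.4% for H1f0 and 75.2% for H1f10, against a median of 52.4% over all windows. H3f3b had 4 copies of CCAAT, 2 of TGACG and a TATAAA, whereas H3f3a had 4 of GGGCGG, 1 of CCAAT and no TATAAA.

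The end of the gene separated H2ax from the other variants. A stem-loop of the histone kind (a perfect stem of 6 bases that opens with GG, and a loop of 4 bases that opens with TT) was searched in the 100 bases after the stop codon. It was found in 61 of 67 genes with a cluster name (91.0%) and in 9 of 21736 other protein-coding genes (0.04%). H2ax was among the latter, with the stem-loop 46 bases after its stop codon at chr9:44143323-44143338 (mm9, plus strand), and all 5 genes from H1f1 to H1f5 had it. H1f10, H2az1, H2az2, H3f3a, H3f3b, Macroh2a2 and Cenpa had none, and H1f0 was not searched because the annotation used (GENCODE M1) holds it only as a pseudogene model without a stop codon. The H2ax and H1f4 elements are shown with the stem in capitals.
H2ax: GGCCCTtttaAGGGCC
H1f4: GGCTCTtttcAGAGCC

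H1f0, on chromosome 15 with its start at 78858642 (mm9, plus strand), encodes H1.0, the linker histone that accumulates in differentiated and slowly dividing cells. Its level was 571.0 and 463.6 normalized counts in WT replicates 1 and 2, against 1943.6 and 2118.0 in H1-TKO replicates 1 and 2. The ratio of the means was 3.93, and the log2 fold change was 1.98 ± 0.16 (SE, n = 2 per genotype; log2 of normalized count + 1 here and below). H1f10, on chromosome 6 with its start at 87931476 (minus strand), encodes H1.10, a linker histone distant in sequence from the other subtypes. It had 140.4 and 134.2 normalized counts in WT, against 452.8 and 401.3 in H1-TKO, a ratio of 3.11 and a log2 fold change of 1.63 ± 0.20. Both genes were higher in each H1-TKO library than in either WT library, which is the pattern they were chosen for. The largest fold between replicates was 1.23 for H1f0 and 1.13 for H1f10. In the order of all 11113 accessions with a mean of at least 10 normalized counts, 270 had a higher log2 fold change than H1f0 and 447 than H1f10. Since both were chosen for their rise, this order describes them and is not read as setting them apart. Of the other linker histone genes read, H1f6, H1f7 and H1f8 did not exceed 12 normalized counts in any library, and H1f1 to H1f5 did not exceed 56.7. In bulk RNA, more cells with a transcript and more transcript per cell cannot be told apart, here and for every gene below.

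**Figure D1:**
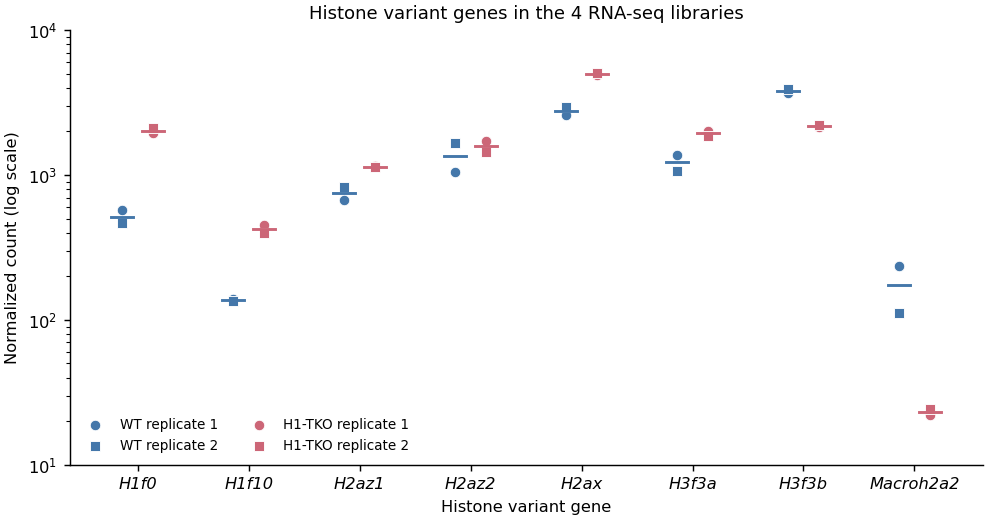
Normalized counts (log axis) of the 8 measurable histone variant genes in each library, with WT in blue, H1-TKO in red, circles for replicate 1, squares for replicate 2 and bars for the mean of each genotype. H1f0 and H1f10, which were chosen for their rise, lie highest above their WT values, and H3f3b and Macroh2a2 lie below theirs. Only H2az2 has overlapping genotypes, while 66.4% of all accessions tested have none.

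The genes whose pattern was most like that of H1f0 over the 4 libraries, by Euclidean distance of mean-centred log2 values, were Cfap43, Pkhd1, 9330102E08Rik, Stambpl1 and 9530077C05Rik, at distances of 0.12 to 0.16. For H1f10 they were Gp1ba, Shcbp1l, Vipr1, Bmf and Rhbdl3, at 0.02 to 0.13. The genotype difference fixes most of this likeness in 4 libraries. The distance between H1f0 and H1f10 was 0.44, so that H1f10 ranked 77 in likeness to H1f0 and H1f0 ranked 166 in likeness to H1f10.

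The other variant genes did not all follow the linker histones. Of the 7, Cenpa could not be tested, and 6 passed the filter on low values. Of these 6, 3 rose in H1-TKO (H2ax, H3f3a and H2az1), 2 fell (H3f3b and Macroh2a2) and H2az2 was not called, by limma with a Benjamini-Hochberg adjusted p under 0.05. Over all 11113 accessions tested, 20.5% were called, 9.84% as higher and 10.7% as lower. Values of the 2 genotypes did not overlap for 5 of these 6 genes, against 66.4% of all accessions. The rises of H2ax, H3f3a and H2az1 were between 1.53-fold and 1.79-fold, below the 3.11-fold and 3.93-fold of the linker histones, which were chosen for their rise. By edgeR and by DESeq2 on the recovered reads, 5 of the 6 were called as well. Without H1-TKO replicate 1, or without H1-TKO replicate 2, only Macroh2a2 of the 6 was called, while calls over all accessions fell to 603 and 585.

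H2ax (chromosome 9, start at 44142798, plus strand) encodes H2A.X, whose phosphorylated form γH2A.X gathers repair factors at DNA double-strand breaks. It had 2616.0 and 2953.8 normalized counts in WT, against 4872.1 and 5081.8 in H1-TKO. Both H1-TKO libraries lay far above both WT libraries. The ratio was 1.79, and the log2 fold change of 0.84 ± 0.12 passed the test (limma adjusted p = 0.00638). Without H1-TKO replicate 1 or 2 the log2 fold change was 0.87 or 0.81, with limma adjusted p = 0.0617 and 0.0859. Its printed stem-loop is the end that S-phase histone mRNA carries, and poly(A) RNA-seq measures the polyadenylated part of H2ax mRNA.

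H2az1 and H2az2 encode the H2A.Z isoforms H2A.Z.1 and H2A.Z.2. H2az1 (chromosome 3, start at 137527451, plus strand) had 668.0 and 827.9 normalized counts in WT, against 1159.1 and 1130.1 in H1-TKO. The genotypes did not overlap, the ratio was 1.53 and the log2 fold change was 0.62 ± 0.16 (limma adjusted p = 0.0334). This call was lost when accessions of any mean above 0 were tested (limma adjusted p = 0.0686) and without H1-TKO replicate 1 (0.272) or replicate 2 (0.236). The log2 fold change stayed at 0.62, 0.60 and 0.64 in these settings, with an SE of 0.30 in the latter 2. H2az2 (chromosome 11, start at 6344446, minus strand) had 1053.6 and 1660.1 in WT, against 1727.6 and 1444.0 in H1-TKO. WT replicate 2 lay between the H1-TKO values, and the log2 fold change of 0.26 ± 0.22 did not pass (limma adjusted p = 0.437). Its sign depended on the WT library, at -0.07 without WT replicate 1 and 0.58 without WT replicate 2 (limma adjusted p = 2.91e-08, in a fit where the lone WT library is assumed to vary like the others).

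Macroh2a2 had the steepest fall of the members. The gene (chromosome 10, start at 61246612, minus strand) encodes macroH2A2, an H2A with a large globular domain that is found on repressed chromatin, the inactive X included. It had 237.4 and 111.3 normalized counts in WT, against 22.0 and 24.2 in H1-TKO. Both H1-TKO values lay below both WT values, although the WT libraries differed from each other by 2.13-fold. The ratio was 0.13 and the log2 fold change was -2.76 ± 0.43 (limma adjusted p = 0.00814), and 123 of the 11113 accessions had a lower one. The change ranged from -3.31 to -2.22 over 13 alternative settings. It was called in each, but in the 4 that leave out a library the lone sample is assumed to vary like the other group, which without a WT library means the closer pair of H1-TKO replicates. Its relative Macroh2a1 could not be compared, since all 4 of its accessions were listed at 0 in every library.

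A further H2A variant gene outside the chosen 9, H2aj, encodes H2A.J and had 342.9 and 327.2 normalized counts in WT, against 433.0 and 508.7 in H1-TKO. The values did not overlap, but the log2 fold change of 0.49 ± 0.18 was not called (limma adjusted p = 0.0932). The germline H2A genes H2ab1, H2ab3 and H2al2a were listed at 0 in every library.

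H3f3a and H3f3b, which encode the same H3.3 protein, moved in opposite directions. H3f3a (chromosome 1, start at 182743736, minus strand) had 1385.6 and 1060.2 normalized counts in WT, against 2022.9 and 1856.8 in H1-TKO. H3f3b (chromosome 11, start at 115885818, minus strand) had 3699.1 and 3915.8 in WT, against 2152.9 and 2210.7 in H1-TKO. Neither gene had overlapping genotypes. The ratio was 1.59 for H3f3a, with a log2 fold change of 0.68 ± 0.16 (limma adjusted p = 0.0282). For H3f3b the ratio was 0.57, with a log2 fold change of -0.80 ± 0.12 (limma adjusted p = 0.00643). The H3f3a call was lost when accessions of any mean above 0 were tested (limma adjusted p = 0.0615), with the log2 fold change still at 0.68. Neither gene was called without H1-TKO replicate 1 or 2. The log2 fold change in these fits was 0.61 or 0.74 for H3f3a and -0.78 or -0.82 for H3f3b.

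The mRNAs of these genes can be told apart by sequence despite the shared protein. Their coding sequences of 411 bases (GENCODE M1) were equal at 316 positions (76.9%), 81 of the 95 differences fell on the third codon position, and the longest equal stretch was 23 bases. H2az1 and H2az2, with 387 coding bases each, were equal at 79.1% of positions and over at most 14 bases in a row. Processed copies of such genes elsewhere in the genome were not examined, and reads that also fit a copy were left out of the counts by the authors. The first 60 coding bases of the H3.3 genes are shown with the 13 differing bases in capitals.
H3f3a: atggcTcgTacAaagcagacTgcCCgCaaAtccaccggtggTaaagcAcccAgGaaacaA
H3f3b: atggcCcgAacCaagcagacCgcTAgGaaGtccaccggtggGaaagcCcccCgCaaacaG

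Per kb of annotated exon, H3f3a and H3f3b together gave 1913.4 and 1895.8 normalized counts in WT, against 1501.6 and 1471.6 in H1-TKO, a ratio of 0.78. H3f3a made up 23.1% and 17.8% of this sum in WT and 43.0% and 40.2% in H1-TKO. The total of H3.3 mRNA was thus lower in H1-TKO than in WT in these libraries, and more of it came from H3f3a. For H2A.Z the sum per kb was 1267.7 and 1787.4 in WT, against 2138.3 and 1938.2 in H1-TKO, a ratio of 1.33. The H2az1 share of that sum was 49.3% and 43.3% in WT and 50.7% and 54.5% in H1-TKO. These sums and shares were not tested.

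**Figure D2:**
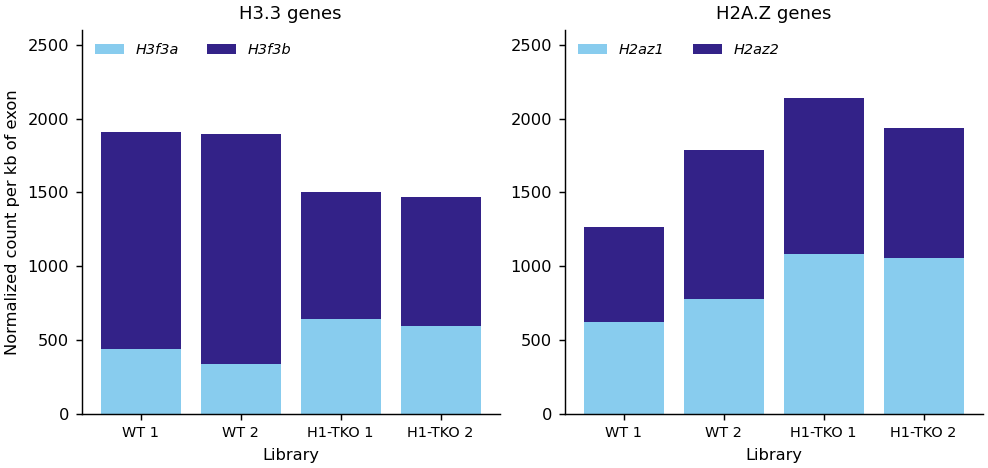
Normalized counts per kb of exon for the H3.3 genes (left) and the H2A.Z genes (right) in each library, as stacked bars from 0. The H3.3 sum is lower in both H1-TKO libraries, at 1501.6 and 1471.6, with a larger H3f3a part, and the H2A.Z sum is higher in both, at 2138.3 and 1938.2.

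Among the members given per kb, H2ax had the highest mean in each genotype, with 2052.3 in WT and 3667.6 in H1-TKO. It was followed in WT by H3f3b at 1514.5, H2az2 at 827.9, H2az1 at 699.7, H3f3a at 390.1, H1f10 at 129.4 and Macroh2a2 at 79.3. In H1-TKO the order below H2ax was H2az1 at 1070.7, H2az2 at 967.5, H3f3b at 867.9, H3f3a at 618.8, H1f10 at 402.5 and Macroh2a2 at 10.5. H2az1 and H2az2 overlapped between libraries in WT. In H1-TKO the libraries gave 1084.3 and 1057.2 per kb for H2az1, 1054.1 and 881.0 for H2az2, and 856.4 and 879.4 for H3f3b, so that these neighbours in the order lay closer to each other than the H2az2 replicates did. The length used was the union of exons over all protein-coding transcripts of a gene in GENCODE M1, not that of the transcript counted. The order between genes is therefore approximate. H1f0, for which no exon length was available, and Cenpa are not in it.

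Cenpa (chromosome 5, start at 30969259, plus strand), the gene of the centromeric H3 variant, could not be measured. Of its 6 accessions, 5 were listed at 0 in every library, and the remaining one had 3.9 and 3.3 normalized counts in WT, against 1.1 and 2.1 in H1-TKO, which is at most 5 reads. Dividing cells need CENP-A, and the pluripotency gene Nanog was also listed at 0 for all of its accessions, so that these zeros were not read as absence. How reads shared by overlapping accessions of 1 gene were counted is not given in the sources used here, which bears on these zeros and on the value of a single accession of any gene listed under several, such as Set, Anp32e and Ep400 below.

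Chromosome-wide differences accompanied some of these changes. The 622 accessions tested on chromosome 1 had a median log2 fold change 0.52 above that of all accessions, and the 920 on chromosome 11 had one 0.35 below it. On the chromosomes of H1f0, H1f10, H2az1, H2ax and Macroh2a2 the median differed from that of all accessions by at most 0.10. Relative to their own chromosome, H3f3a was higher by 0.18, H3f3b was lower with a difference of -0.43, and H2az2 was higher by 0.63. The part of the chromosome medians in the H3f3a, H3f3b and H2az2 values was not tested.

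Accessions of genes that start within 1 Mb of a member, here called neighbours, were compared with it. For H1f0, the 40 tested neighbours, with Ddx17 and Kctd17 each listed under several accessions, had a median log2 fold change of 0.11, and for H1f10 the median of 16 was -0.31. Since these 2 members were chosen for their rise, their rank among the neighbours is not read. Macroh2a2 was below all 21 of its neighbours, with a median of 0.39. H3f3a had 14 neighbours with a median of 0.07 and 2 above it. H3f3b was less set apart, since 12 of its 51 neighbours had a lower log2 fold change and the median of all 51 was -0.31. H2ax was exceeded by 7 of 29 neighbours and H2az1 by 1 of 7.

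**Figure D3:**
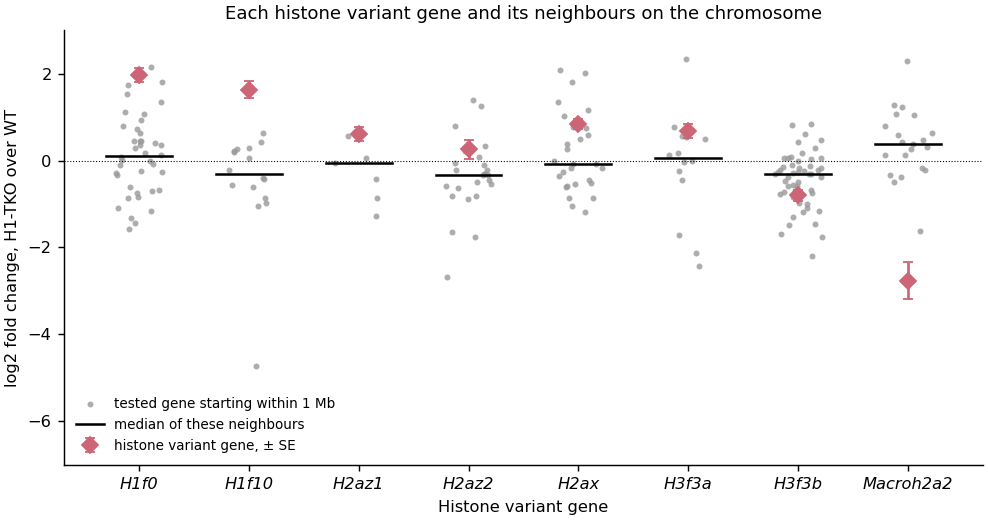
Log2 fold change of each measurable histone variant gene (red diamond, ± SE) beside the tested accessions of genes that start within 1 Mb of it (grey points) and their median (black line). Macroh2a2 lies below all 21 of its neighbours and H3f3b within the spread of its 51, while H1f0 and H1f10 were chosen for their rise.

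The nearest neighbour of H1f10 moved against it. The long non-coding RNA gene Gm5577 starts 0.2 kb away on the opposite strand, and it had 40.3 and 33.8 normalized counts in WT, against 0.0 and 1.1 in H1-TKO. Its log2 fold change was -4.73 ± 0.82 (limma adjusted p = 0.0109), a size that depends on the pseudocount because H1-TKO is near 0. A longer GENCODE M1 model of Gm5577 overlaps H1f10 on the other strand, and whether the counting used strand is not given in the sources used here, so the counts of this pair are uncertain. The next gene, Hmces, which encodes a sensor of abasic sites in DNA, starts 67.5 kb from H1f10 and fell with a log2 fold change of -0.97 ± 0.17 (limma adjusted p = 0.0109). Near H1f0, Gcat (2.7 kb away) and Ankrd54 (34.6 kb) each had a log2 fold change of 0.37 and were not called (limma adjusted p = 0.302 and 0.206).

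Variants are placed on chromatin by dedicated chaperones and remodelers, and the genes of these factors were read from the same fit. None of the 6 tested H3.3 factors was called, beside 20.5% of all accessions. Hira, the H3.3 chaperone of active genes, had 1488.0 and 1505.3 normalized counts in WT, against 1120.5 and 1242.8 in H1-TKO (log2 fold change -0.34 ± 0.13, limma adjusted p = 0.104). Atrx, which places H3.3 at repeats, had a log2 fold change of -0.11 ± 0.15. The median over the 6 was -0.32, beside -0.03 over all accessions.

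Of 8 tested factors for H2A.Z, 2 fell and 1 rose, beside 10.7% of all accessions called lower and 9.84% higher; a count of 3 among 8 is not read as particular to them. Ino80, the ATPase of a remodeler that can remove H2A.Z, went from 1447.7 and 1998.3 in WT to 751.4 and 854.2 in H1-TKO (log2 fold change -1.09 ± 0.18, limma adjusted p = 0.0103). Srcap, the ATPase that deposits H2A.Z, had 4637.0 and 5925.0 in WT, against 3299.9 and 3206.0 in H1-TKO (log2 fold change -0.69 ± 0.14, limma adjusted p = 0.0181). Actr6, an actin-related subunit of the SRCAP complex, rose from 271.5 and 214.9 to 405.5 and 431.8 (log2 fold change 0.79 ± 0.20, limma adjusted p = 0.0334). Ep400, the other ATPase, had at most 3.3 normalized counts, and Anp32e, which evicts H2A.Z, was listed at 0.

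Among the factors for CENP-A, Rbbp7 rose and Hjurp was not called. Rbbp7, a histone-binding protein shared by many complexes, went from 4970.6 and 3137.0 to 7591.4 and 7409.4 (log2 fold change 0.93 ± 0.20, limma adjusted p = 0.0219). Hjurp, the CENP-A chaperone, had 122.6 and 110.2 in WT, against 173.0 and 218.0 in H1-TKO and was not called (0.74 ± 0.25, limma adjusted p = 0.0751). Of 10 tested accessions for H1, H2A and H2A.X factors, 2 fell. Atm, the kinase that phosphorylates H2A.X, went from 1688.9 and 1932.8 to 1075.4 and 965.8 (log2 fold change -0.83 ± 0.14, limma adjusted p = 0.0105), while H2ax itself rose. The other was a low accession of Set, an H1 and H2A chaperone gene, with 66.7 and 37.1 in WT, against 4.4 and 11.6 in H1-TKO (-2.62 ± 0.64, limma adjusted p = 0.0292), and the second accession of Set was not called. Over the 31 accessions of the 4 lists, 7 were called, which is near the 20.5% of all accessions. The count was 17 without WT replicate 1, 19 without WT replicate 2, 1 without H1-TKO replicate 1 and 3 without H1-TKO replicate 2.

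**Figure D4:**
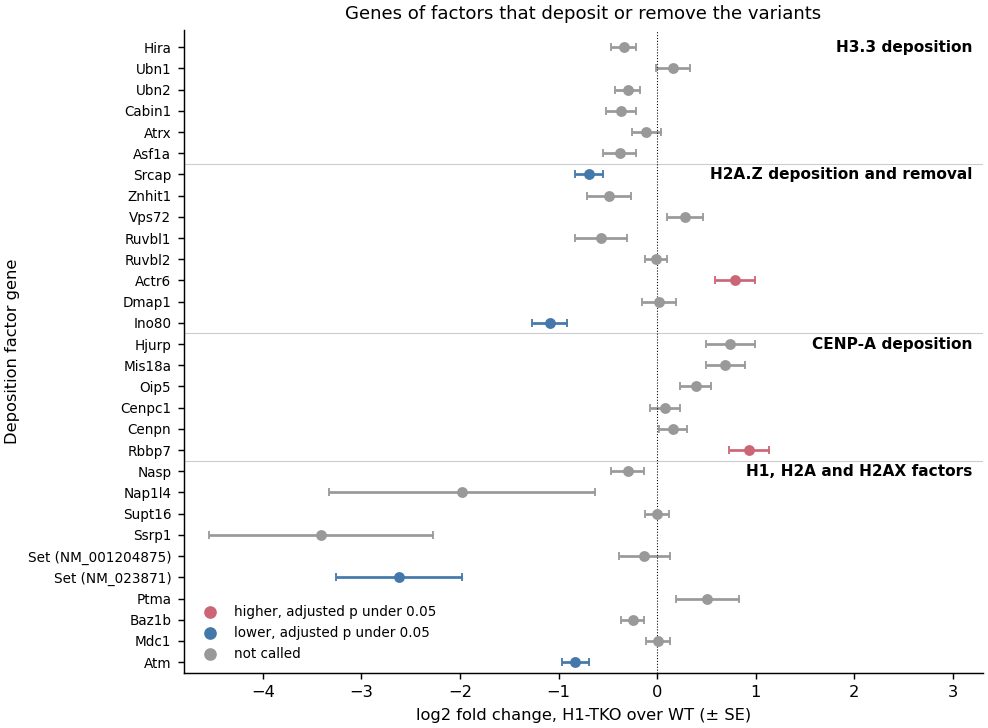
Log2 fold change (± SE) of tested genes of deposition and removal factors, grouped by the variant they handle, with called rises in red, called falls in blue and the rest in grey. No H3.3 factor is called, and Ino80 and Srcap fall while Actr6 rises. The CENP-A factors shown lie above 0, but only Rbbp7 of them is called and Cenpc1 lies within its SE of 0.

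Some markers of cell state differed between the genotypes beside these results. Over all accessions, 9.84% were called higher and 10.7% lower. Of 4 tested mESC marker genes, 2 rose: Sox2, from 3958.2 and 5440.7 in WT to 9653.9 and 9460.0 in H1-TKO (log2 fold change 1.04 ± 0.16, limma adjusted p = 0.00773), and Klf4 (1.45 ± 0.38, limma adjusted p = 0.0371). The other 2 were not called: Pou5f1 had 2641.6 and 5110.2 in WT, against 2585.9 and 2907.9 in H1-TKO (-0.42 ± 0.28, limma adjusted p = 0.301), and Zfp42 had a log2 fold change of 0.22 ± 0.19 (limma adjusted p = 0.43). Of 3 tested neural marker genes, 2 fell, Nes (-2.87 ± 0.49, limma adjusted p = 0.0105) and Tubb3 (-0.87 ± 0.21, limma adjusted p = 0.029). The 4 neural markers summed to 3849.6 and 2297.1 normalized counts in WT and to 813.1 and 879.4 in H1-TKO. The 6 fibroblast markers summed to 235.8 and 171.2 in WT, against 57.3 and 60 in H1-TKO, with Dcn, Postn and Pdgfrb, each of several accessions, listed at 0, and Col1a1 fell (-1.97 ± 0.35, limma adjusted p = 0.0112). Neither of 2 primitive endoderm accessions nor any of 4 mesoderm genes was called, and no trophoblast marker passed the filter. The part of these cell-state differences in the changes of the variant genes was not tested.

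H3K27me3, the mark of Polycomb repression, was not listed at any of these genes. None of the 9 members had a peak within 2 kb of its start in the WT list of 6957 peaks or in the H1-TKO list of 6262 peaks. Among 22998 genes placed in mm9, 13.0% had a WT peak and 11.9% an H1-TKO peak in that window. The count stayed at 0 within 5 kb and over the gene body. A window of 1 kb, or only peaks of score 100 or more, could give no other count. With 1 list per genotype there is no replicate check, and no peak in a list does not show that the mark is absent.

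The nearest peaks lay 14.5 kb from H1f0 in WT and 14 kb in H1-TKO. In the WT list that peak was chr15:78873181-78873521 (mm9) with a score of 70.3, and in the H1-TKO list it was chr15:78872654-78872940 with a score of 64.1 (the MACS score, which grows as the p of the peak falls). A stronger peak just beyond it had scores of 113.7 and 112.0. H2ax had its nearest peak at 15.2 and 15.5 kb, with scores of 168.9 and 115.6. For Macroh2a2, which fell most, the nearest peak was 157.4 kb away in WT and 157.7 kb in H1-TKO, with scores of 76.1 and 56.1. H1f10 had none closer than 217.4 kb in WT and 247.7 kb in H1-TKO. As neither list held a peak within 5 kb of the start of any member, no gain or loss of a listed peak could appear there. The part of H3K27me3 in the changes of these genes was not tested.

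**Figure D5:**
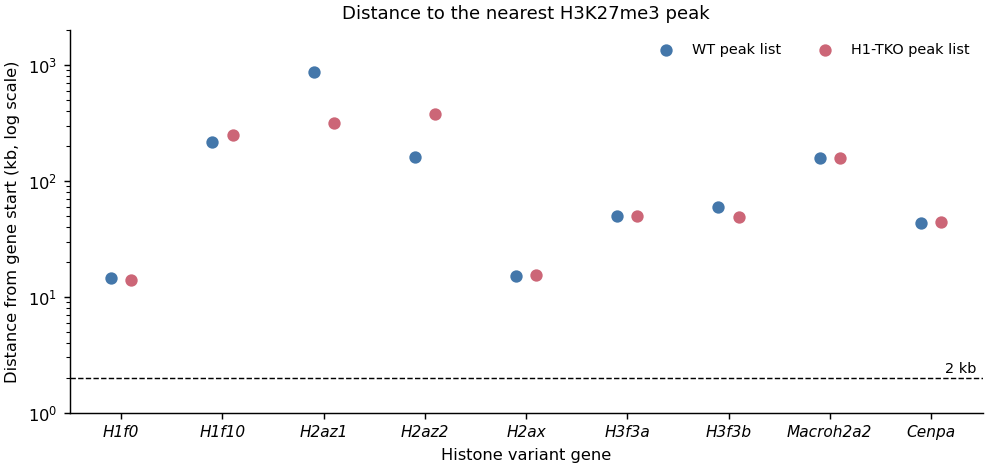
Distance from the start of each of the 9 genes to the nearest H3K27me3 peak (kb, log axis) in the WT list (blue) and the H1-TKO list (red), with a dashed line at 2 kb. The closest are those of H1f0, at 14.5 and 14 kb, and H2ax, at 15.2 and 15.5 kb, and all lie above the line.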

How the data were processed

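Poly(A) RNA-seq was measured in 4 libraries and H3K27me3 ChIP-seq in 1 peak list per genotype. The authors mapped paired-end RNA reads to mm9 with Subread, counted the uniquely mapped ones by featureCounts and deposited counts divided by DESeq2 size factors, here called normalized counts (a signal, not counts). Per the labels' processing notes the tools also include Bowtie2 and SAMtools. The authors called peaks with MACS and deposited a score for each, a multiple of the negative log10 of its p-value, all at 50 or more.

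Every value of the 4 tables was a whole multiple, within 0.01 reads, of what 1 read is worth (100%), so reads were recovered. The 11113 accessions whose normalized count averaged 10 or more were tested by limma 3.58.1 (moderated with trend) on log2(normalized count + 1), with Benjamini-Hochberg adjustment and a threshold of 0.05. edgeR 4.0.16 (quasi-likelihood) and DESeq2 1.42.0 were run on recovered reads as alternatives, beside other pseudocounts, filters, scalings, a replicate block and each library left out. Data for this comparison were simulated with 11124 accessions at a fixed dispersion of 0.05. Of 200 accessions changed by a log2 fold of 2, 182 were recovered, with 7 false calls. Smaller changes, which most tested members had, were not simulated, so their recovery is not known from this. The study's methods call the 2 libraries of a genotype biologically independent, without saying whether they came from separate clones.

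Gene starts in mm9 were placed by exact match of RefSeq promoter windows in the genome (26165 genes), that of H2ax by GENCODE M1. The genes named were the 9 members, lists of other variants, deposition factors, proliferation genes and cell type markers (called factors only, and a few uncalled ones chosen after their values were seen), the 5 accessions most like H1f0 and H1f10, and the nearest 2 neighbours within 1 Mb. The members and lists were chosen with earlier results of these data known. Sums of lists are over all their accessions. An item that counts toward the list totals is not reported here. The peak lists themselves hold no read depth.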

Additional observations from a re-analysis of the deposited data

How the results depend on the processing

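Cenpa and Macroh2a1 had too few reads to be tested, and the mutated H1 genes had few reads in every library; the cause was not tested. Testing accessions of any mean above 0 reduced the calls from 2282 to 1321 over all accessions, from 5 to 3 among the 6 variant genes and from 7 to 3 among the deposition factors; more accessions enter the adjustment there. Leaving out 1 library gave 585 to 5468 calls over all accessions, 1 to 6 among the variant genes and 1 to 19 among the factors, and H2az2 turned to a log2 fold change of -0.07 without WT replicate 1 and rose to 0.58 without WT replicate 2; the cause was not tested. Other pseudocounts, a mean of at least 50, TMM or quantile scaling, edgeR and DESeq2 left these counts within 1.5 times the reported ones. The same replicate number did not pair the libraries (r = 0.01 between the deviations of replicates numbered 1), and a fit with the replicate block called 3299 accessions, 5 variant genes and 10 factors. H1f0 ranged from 1.83 to 2.13 and H1f10 from 1.54 to 1.71 over 13 alternatives.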

Other observations

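Genes of the cell cycle gave no common direction among those called. Of 13 tested proliferation genes, 1 rose and 3 fell, beside 9.84% of all accessions called higher and 10.7% lower, with a median log2 fold change of 0.28 beside -0.03 over all accessions. Ccnb1, the mitotic cyclin B1, had 1443.8 and 1243.5 normalized counts in WT, against 2079.1 and 1875.8 in H1-TKO (log2 fold change 0.56 ± 0.14, limma adjusted p = 0.0318). Aurkb (0.38 ± 0.16), Ccna2 (0.35 ± 0.11), Plk1 (0.31 ± 0.12) and Cdk1 (0.28 ± 0.13) were also above 0 but not called. Top2a (-0.2 ± 0.11) and Mki67 (-0.04 ± 0.15) were below 0 and not called. Pcna, the sliding clamp of DNA replication, had 1459.3 and 2197.9 in WT, against 783.4 and 795.2 in H1-TKO (-1.18 ± 0.20, limma adjusted p = 0.0104). The replicative helicase genes did not move together. Mcm2 (-0.40 ± 0.11, limma adjusted p = 0.0409) and Mcm7 (-0.41 ± 0.12, limma adjusted p = 0.0476) fell, whereas Mcm6 (0.47 ± 0.14, limma adjusted p = 0.0527), Mcm3 (0.29 ± 0.11, limma adjusted p = 0.103) and Mcm4 (0.09 ± 0.13, limma adjusted p = 0.636) had values above 0 and were not called. The summed level of the list was 65335.2 and 62379.7 in WT, against 63437.0 and 65381.6 in H1-TKO, with overlapping genotypes.

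Taken over all members, most of the nearest 2 neighbours were not called, beside 20.5% called among all accessions. Those called besides Gm5577 and Hmces are given here and are not read as particular to these places. Lamtor3, a scaffold of mTORC1 signalling that starts 54.0 kb from H2az1, had a log2 fold change of -1.27 ± 0.24 (limma adjusted p = 0.013). Dpagt1, an enzyme that starts protein N-glycosylation and lies 7.9 kb from H2ax, had -1.04 ± 0.26 (limma adjusted p = 0.0308). Lefty2, a Nodal antagonist 79.5 kb from H3f3a, went from 413.5 and 1154.0 in WT to 154.3 and 159.0 in H1-TKO (-2.13 ± 0.43, limma adjusted p = 0.016). Aifm2, a suppressor of ferroptosis 63.2 kb from Macroh2a2, rose from 42.7 and 37.1 to 117.9 and 80.0 (1.27 ± 0.36, limma adjusted p = 0.0456).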
